A study of Rattus norvegicus with 24 samples.

Results

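Levels of the array probes R364, RG421, R592, R045, R333, R439 and RG054 in rat left ventricle were compared between infarcted and sham-operated hearts 1 day and 7 days after surgery. They are 7 of the 1185 probes of the array, known here by ID only, because 0 of the IDs matched the RefSeq gene table (GRCr8 assembly) and no file at hand pairs them with genes. RNA of the left ventricle was measured on 24 arrays, with 6 arrays in each of 4 groups. These were MI (myocardial infarction) at 1 day, MI at 7 days, sham operation at 1 day and sham operation at 7 days. Both operations were sampled as left ventricle with septum, but in MI hearts the infarct zone was left out, so operation and sampled region cannot be told apart. A line of the label of every day 1 sham array reads 7 day, against its title and keyword of 1 day; arrays were grouped by title. How infarction was produced, and the strain, sex and age of the rats, were not given in the sources used here. It is also unstated whether the 6 arrays of a group came from 6 rats. The p-values therefore measure the spread between these arrays only, which may be technical.

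Myocardial infarction is the death of heart muscle that has lost its blood supply. In the hours and days that follow, inflammatory cells enter the heart and clear dead tissue, stress and wound-healing genes are switched on in the surviving wall, and fibroblasts later lay down scar. A sham operation opens the chest without infarction and so carries the effects of surgery alone. The arrays measured RNA of bulk ventricular tissue, in which more cells of a type and more RNA per cell cannot be told apart. Since the IDs have no gene names here, markers of heart muscle or of other cell types could not be looked up, and the 7 probes are described by their levels alone.

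The members were chosen on these data. After complete-probe scaling, in which each array was shifted so that the 94 probes listed on every array had an equal median log2 intensity, limma called 10 of 283 probes between MI and sham at day 1, or 3.53% (Benjamini-Hochberg adjusted p under 0.05). All 10 were higher in MI, and 3 of them, R642, RG316 and RG433, were also called at day 7. The remaining 7 are the probes described here, so nothing is read from the share called, and their day 1 and day 7 differences below are descriptions without a test. The member nearest the threshold was RG054, with an adjusted p of 0.0332 in limma and a log2 difference of 0.56. Just outside it lay R687 at -0.46 and R373 at -0.50, both lower in MI, with adjusted p of 0.0652 and 0.0943 in limma. On the deposited scale limma called 0 of 283 probes at day 1, hence 0% and 0 of the 7 members. With runs of title numbers (described below) as a block it called 6 of 283 on the same values, or 2.12%, and R364, RG421, R592 and R045, 4 of the 7, were among them. The log2 differences with the block were 0.82 for R364, 0.80 for RG421, 1.00 for R592 and 0.95 for R045. The count of 0 also rested on single arrays: without sham array A505 limma called 11 of the 188 probes still tested, 7 of the 7 among them, without sham A536 it called 8 of 188, again with all 7, without MI A511 it called 6, with 5 of the 7 (R439 and RG054 were not called), and without sham A535 it called 2 of 188, of which R364 was 1. It also called 1 probe, no member, without A502. Sham arrays A505, A535 and A536 are those of day 1 outside A507 to A509, which were dimmer (described below). Leaving out any 1 of them gives the dimmer arrays more weight in day 1 sham and cut the tests from 283 to 188. After complete-probe scaling R364, RG421, R592 and R045 were called with any 1 of the 24 arrays left out, R333 in 23 of those 24 fits, R439 in 19 and RG054 in 16. Those fits called 7 to 12 of the 188 to 283 probes tested, 4 to 7 of them members. The members were chosen on this contrast, so nothing is read from these counts. Leaving out a day 7 array, which holds no day 1 value, lost none of the 7, so every loss came from a day 1 array. RG054 was lost without any 1 of A507 to A512, A537 or A538. R439 was lost without A508, A509, A511, A512 or A537, and R333 without A509. With all arrays, as deposited, an unadjusted p under 0.05 in limma was reached by 22 of 283 probes, and by 7 of the 7. The 7 were chosen on this contrast of the same arrays, so nothing is read from the 7 of 7.

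The arrays differed in how much they listed. Arrays A507 to A509 (day 1 sham) and A510 to A512 (day 1 MI) listed 141 to 296 probes each, and the other 18 listed 404 to 684. Before any scaling the 94 probes listed everywhere had a median intensity of 117 to 179 on A507 to A509, 164 to 250.3 on A510 to A512 and 242 to 338 on the others. The sham arrays of this set thus reached lower than its MI arrays, with overlapping ranges. The part of this in the day 1 differences was not tested on its own, and the day 1 differences are given below on both scales and without these 6 arrays. Except for R333, which was blank on A508, the 7 probes were listed on all 24 arrays. Their geometric means over the arrays ran from 151 for R333, with 55.6% of 275 tested probes dimmer, to 287 for R364, with 84.7% dimmer. On A507 to A509, however, the listed values of R592, R045, R333 and R439 lay below the median of all listed probes, which was 96.7 to 102. Each of the 7 had at least 3 listed values in every group, the minimum asked of a tested probe.

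R364 and RG421 were the pair in which MI at day 1 stood highest of the 4 groups on both scales. In deposited intensities R364 was 296 at the lowest, 398 at the median and 435 at the highest in day 1 MI. In day 1 sham it was 119.7 at the lowest, 232 at the median and 331 at the highest. At day 7 the sham arrays read 218 to 322 and the MI arrays 261 to 339, and these ranges overlapped. Every day 1 MI array exceeded every day 7 sham or day 1 sham array except A511, whose 296 lay below sham arrays of both days. The geometric mean at day 1 was 1.76-fold that of sham, a log2 difference of 0.82 (SE 0.20), the arithmetic mean being 387 ± 47.7 (SD, n = 6) after MI, against 231 ± 79.3 (SD, n = 6) after sham operation.

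RG421 followed the same order. Its deposited intensity in day 1 MI was 165 at the lowest, 321 at the median and 395 at the highest. In day 1 sham it was 101 at the lowest, 168 at the median and 262 at the highest, and the groups overlapped only through A511, the lowest MI array. Day 7 values were 174 to 240.3 in sham and 234 to 303 in MI, which overlapped. The day 1 difference was 1.74-fold, or 0.80 (SE 0.23) on the log2 scale, between 183 ± 67.4 (SD, n = 6) in sham and 312 ± 85.8 (SD, n = 6) in MI.

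For R592 and R045 the sham arrays of day 1 held very low values beside ordinary ones. R592 was 52.2 at the lowest, 114 at the median and 229.7 at the highest in day 1 sham, where A507 to A509 gave 52.2 to 60.4 and the other 3 arrays 167 to 229.7. In day 1 MI it was 122 at the lowest, 230.1 at the median and 308 at the highest, and at day 7 it lay at 178 to 266 in sham and 210.3 to 254 in MI. Day 1 MI was therefore not above the day 7 groups, whose ranges it spanned. The day 1 log2 difference of R592 was 1.00 (SE 0.30), the largest of the 7 on the deposited scale, between 131 ± 84.1 (SD, n = 6) and 223 ± 61.6 (SD, n = 6).

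R045 had 41.6 at the lowest, 107 at the median and 210.2 at the highest in day 1 sham, with 41.6 to 82.6 on A507 to A509. In day 1 MI it had 101 at the lowest, 203 at the median and 255 at the highest. At day 7 it was 133 to 202 in sham and 197 to 243 in MI, so the highest sham array of that day lay above the lowest MI array. The differences in log2 were 0.95 (SE 0.29) at day 1 and 0.32 (SE 0.28) at day 7. Day 7 MI had the highest mean of its 4 groups, at 218 ± 16.8 (SD, n = 6), against 194 ± 52.0 (SD, n = 6) in day 1 MI.

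R333 was the dimmest of the 7 and the one with a blank. Its 5 listed day 1 sham arrays ran from 47.5 through a median of 80.7 to 171, and the lowest values, 47.5 and 48.1, came from A507 and A509. In day 1 MI it was 90.7 at the lowest, 168 at the median and 180.3 at the highest. Both day 7 groups reached higher, with 127 to 210.4 in sham and 174 to 263 in MI. R333 was the member with the highest day 7 difference on the deposited scale, 0.39 (SE 0.26), beside 0.86 (SE 0.27) at day 1. Its day 1 MI mean of 158 ± 33.2 (SD, n = 6) lay below its day 7 sham mean of 169 ± 31.0 (SD, n = 6).

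R439 and RG054 complete the set, and like R592 they were lowest on A507 to A509. R439 was 71.5 at the lowest, 139 at the median and 306 at the highest in day 1 sham, 71.5 to 82.5 of it on A507 to A509. In day 1 MI it was 157 at the lowest, 258 at the median and 339.6 at the highest, and at day 7 it was 179 to 258 in sham and 218 to 290.3 in MI. Sham array A536, at 306, exceeded 4 of the 6 day 1 MI arrays. RG054 was 67.3 at the lowest, 158 at the median and 309 at the highest in day 1 sham, with 67.3 to 97.9 on A507 to A509. In day 1 MI it was 159.9 at the lowest, 266 at the median and 353 at the highest, and its day 7 ranges of 207 to 306 in sham and 252 to 356 in MI covered much of the same span. The day 1 log2 differences were 0.82 (SE 0.29) for R439 and 0.81 (SE 0.30) for RG054. As deposited the day 1 groups thus overlapped in all 7 probes, while 1.41% of the 283 tested had every MI value above every sham value.

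**Figure D1:**
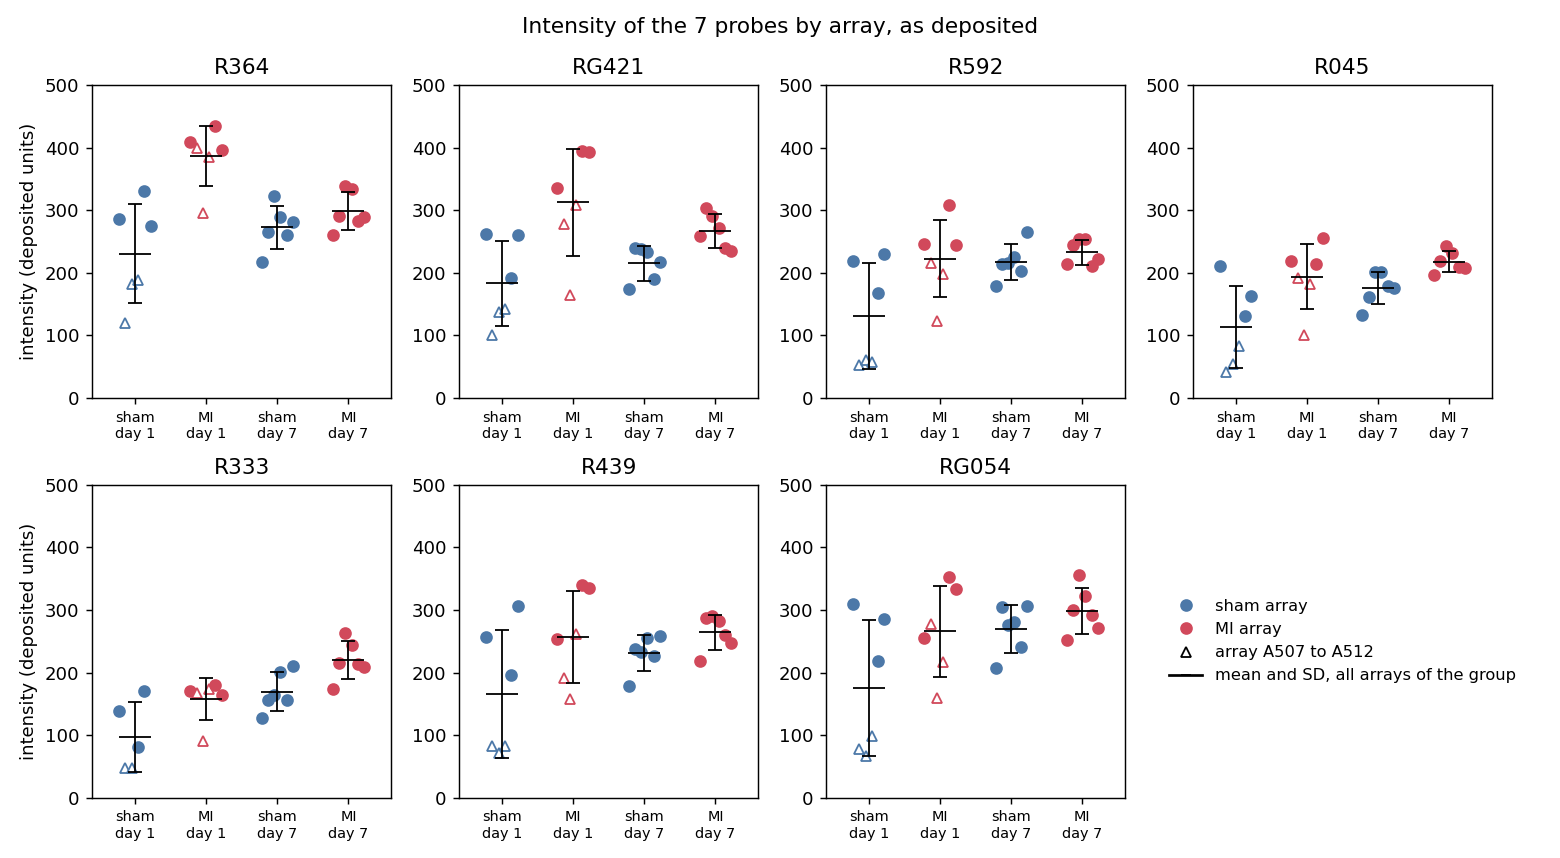
Deposited intensity (linear, authors' units) of the 7 probes on each array, by group, with sham arrays in blue and MI arrays in red, arrays A507 to A512 as open triangles, and the group mean and SD over the arrays that listed the probe as black bars. The open blue triangles of day 1 sham are the lowest points of every panel, as for R592 at 52.2 to 60.4.

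On the deposited scale, A507 to A509 gave the lowest values of the 24 arrays for all 7 probes (for R333, A507 and A509, as A508 was blank). Since the probes listed everywhere were also dim on these arrays, the values were compared again after complete-probe scaling, which removes a shift common to those 94 probes. After it the 7 probes parted. R364 on A507 to A509 was 266 to 277, within the 215 to 291 of the other 3 day 1 sham arrays, and RG421 was 208 to 225 beside 169 to 223. R592 stayed low there, at 83.7 to 116 against 147 to 186, and so did RG054, at 102 to 173 against 192 to 263. These were the 2 probes of the 7 for which A507 to A509 remained below the other 21 arrays. For R045 the 2 sets of sham arrays were 81.3 to 120.2 and 115 to 179, for R333 70.0 to 106 and 71.0 to 134, and for R439 109 to 182 and 172 to 239.9, each overlapping.

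With this scaling the day 1 groups of R364, RG421 and R592 did not overlap. R364 was 307 to 469 in MI and 215 to 291 in sham, RG421 261 to 344 and 169 to 225, and R592 189 to 237 and 83.7 to 186. Over all 283 probes tested, 10 had every MI value above every sham value, or 3.53%; the rule used this contrast, and nothing is read from the 3 of 7. The median log2 difference of the 7 was 0.57, in a range of 0.55 to 0.74, where the median over all 283 probes was -0.02. As deposited the median of the 7 was 0.82 and that of all probes 0.12. R364 was 0.56 (SE 0.11) after scaling and RG421 0.55 (SE 0.09), while R592 was highest at 0.74 (SE 0.15). The scaling lowered the difference equally for all members listed on every array, so the order among these could not change.

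**Figure D2:**
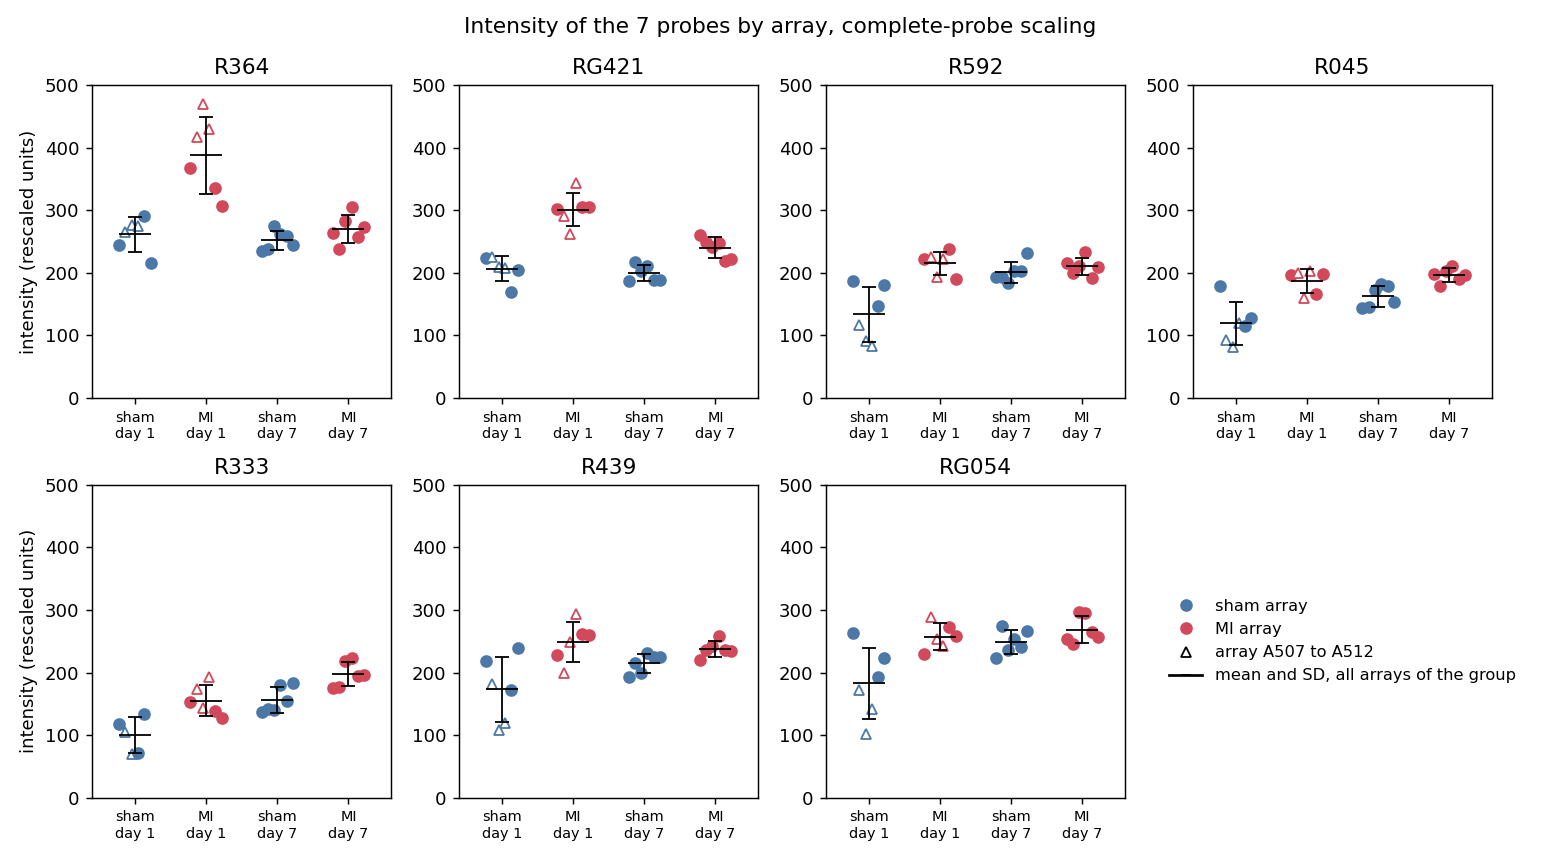
Intensity of the 7 probes on each array after complete-probe scaling (rescaled linear units), with colours, symbols and bars as mean and SD of each group as defined in the panel at the lower right. In R364 and RG421 every day 1 MI point lies above every day 1 sham point (261 to 344 against 169 to 225 for RG421), while R592 and RG054 keep low open triangles in day 1 sham.

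Leaving out A507 to A512 left 3 arrays a group at day 1. For RG421 the deposited values were then 335 to 395 in MI and 192 to 262 in sham. The log2 difference was 0.66 (SE 0.16), below the 0.80 with all arrays. After complete-probe scaling it was 0.62 (SE 0.11), slightly above the 0.55 with all arrays. R364 was 396 to 435 in MI and 275 to 331 in sham, at 0.48 (SE 0.15) and, scaled, 0.44 (SE 0.12). R592 went from 1.00 with all arrays to 0.38 (SE 0.16), with 244 to 308 in MI above 167 to 229.7 in sham. R045 was 0.47 (SE 0.18) and R333 0.47 (SE 0.23) as deposited. The least was left of R439, at 0.31 (SE 0.18), and of RG054, at 0.22 (SE 0.18), where MI at 256 to 353 and sham at 218 to 309 overlapped over most of their range. All 7 differences stayed above 0, as did 152 of the 251 probes still tested.

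Without those 6 arrays, 4 of the 7 (R364, RG421, R592 and R045) had every deposited MI value above every sham value, where 7.57% of the 251 tested probes did. After scaling it was 3 of 7 (R364, RG421 and R592), and 7.57% of all tested. In limma 0 of 251 probes passed as deposited, again 0%, with 18 at an unadjusted p under 0.05. With complete-probe scaling 1 of 251, or 0.398%, passed, and that probe was RG421. These 3 arrays a group are part of those the choice of the 7 was made on, so the counts are descriptions.

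**Figure D3:**
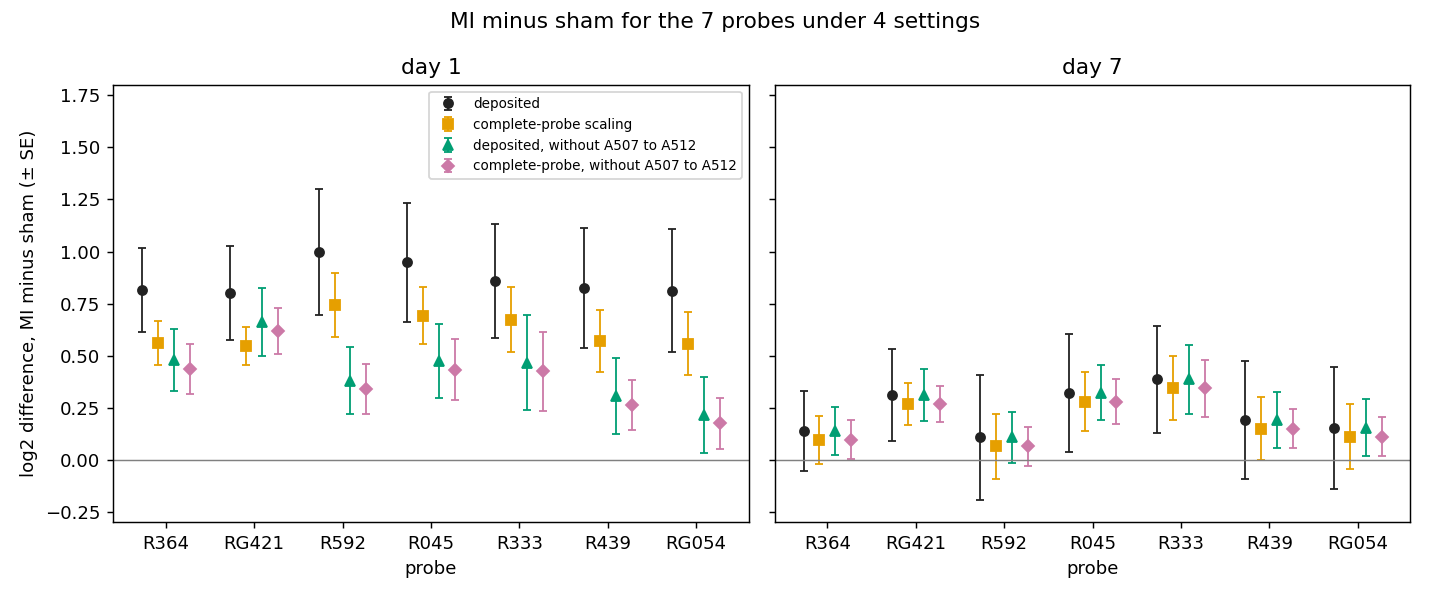
Log2 difference of MI minus sham (points) with its limma SE (bars) for each of the 7 probes at day 1 (left) and day 7 (right), on the deposited scale and after complete-probe scaling, with and without arrays A507 to A512. At day 1 RG421 lies between 0.55 and 0.80 in the 4 settings, while RG054 goes from 0.81 to 0.17, and all 7 points at day 7 lie between 0.06 and 0.39.

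The array titles carry numbers in runs, and 2 runs held day 1 arrays of both operations. Within A535 to A538, with 2 arrays of each operation and none of the 6 above, the scaled log2 difference was above 0 for 7 of 7 probes, with a median of 0.38. It was highest for RG421 at 0.71 and R045 at 0.58, and 0.36 for R364, for RG054 and for R439 alike. Within A505 to A512, with 4 arrays of each operation (3 sham values for R333), the median was 0.67 and R592 was highest at 0.93. There RG421 had the lowest value, 0.46. The pair A505 and A506, 1 array of each operation and the arrays of that run outside A507 to A512, differed by 0.59 for R364 and 0.43 for RG421. It differed by 0.07 for R439 and -0.19 for RG054, where the sham array was the higher. As deposited the medians within the runs were 0.48 and 1.00. The choice of the 7 was made on all these arrays, so the signs and medians within runs are descriptions. The share of all probes above 0 within a run was not computed.

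A rank within an array does not depend on how the array was scaled. Of the 7 probes, 6 belong to the 94 listed on every array, and each was ranked there from 1, the brightest. R364 held ranks 14 to 37 in day 1 MI and 40 to 70 in day 1 sham, RG421 31 to 47 and 55 to 83, R592 57 to 75 and 79 to 91, and R045 67 to 83 and 84 to 92. In these 4 of 6 the ranks did not overlap, against 5 of all 94 probes (5.32%) with MI brighter throughout. The members were chosen on this contrast of these arrays, so nothing is read from the 4 of 6. R439, at 39 to 71 and 57 to 86, and RG054, at 36 to 61 and 45 to 86, overlapped. At day 7 the ranks of R364 were 33 to 58 in MI and 39 to 61 in sham, close to those of day 1 sham. Those of RG421, 47 to 68 and 61 to 84, overlapped too. R045 was 1 of 6, and the 1 of all 94 probes (1.06%), whose day 7 ranks did not overlap with MI brighter, at 70 to 84 in MI and 85 to 90 in sham, although its day 7 intensity difference was not called. R333, ranked against the 94, held 62 to 83 in day 7 MI and 87 to 92 in day 7 sham.

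At day 7 all 7 probes had a higher mean in MI than in sham, by less than at day 1. As deposited the log2 differences ran from 0.11 for R592 to 0.39 for R333, with a median of 0.19, where the median over the 486 probes tested at that day was 0.05 and 281 of them were above 0. R364 was 0.14 (SE 0.19), RG421 0.31 (SE 0.22), R439 0.19 (SE 0.28) and RG054 0.15 (SE 0.29). In limma 7 of 486 probes, 1.44%, were called as deposited and 11, 2.26%, after complete-probe scaling. Without A507 to A512, which changed the estimate of the spread, 13 were called on either scale, 2.67%, and with runs as a block 17, 3.5%. By the choice of the 7, 0 of them were among the scaled calls, and 0 were called in the other 4 fits. The counts over all probes moved with single arrays, down to 2 as deposited without MI A519 or without sham A514 or A517 and 3 without MI A515 or A516, and after scaling to 17 without MI A504 and to 7 without sham A513 or A514; 0 of the 7 were called in any of these. As deposited the day 7 groups overlapped in all 7 probes, where 4.53% of the 486 had every MI value above every sham value. After scaling they did not overlap for RG421, at 219 to 261 in MI and 187 to 217 in sham, and 4.32% of all probes did so. Within runs at day 7 the scaled difference was above 0 for 7 of 7 in A501 to A504, 7 of 7 in A513 to A516 and 6 of 7 in A517 to A520, the exception being R592 at -0.11. Each of these runs held 2 arrays of each operation, and no share over all probes was computed within them.

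Whether the effect of MI differed between the days was tested directly over the 275 probes with enough values in all 4 groups. In limma 0 of 275 passed as deposited (0%), with 7 at an unadjusted p under 0.05, and 0 after complete-probe scaling (0%), with 15; without A507 to A512 it was 0 of 247 on both scales, with 8 and 11. A larger effect at day 1 than at day 7 was therefore not shown for the 7 probes, although the day 1 arrays that chose them enter this test. The day 7 effect minus the day 1 effect was below 0 for all 7, from -0.89 for R592 to -0.47 for R333 as deposited. The median was -0.63 for the 7 and -0.13 for the 275 probes. After scaling it was -0.42 and 0.02. Without A507 to A512 the median of the 7 was -0.15 as deposited, with R364 at -0.34 (SE 0.18) and RG421 at -0.35 (SE 0.20), and the other 5 between -0.27 and -0.06.

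After complete-probe scaling, R364 and RG421 took another course from day 1 to day 7 than the other 5, a grouping made after the values were seen that was less clear as deposited. No run of title numbers holds arrays of both days, so run and day cannot be told apart. In MI, after complete-probe scaling, R364 was lower at day 7, at -0.51 on the log2 scale (SE 0.11), from 388 ± 61.4 (SD, n = 6) to 269.8 ± 22.8 (SD, n = 6). RG421 was at -0.33 (SE 0.10), from 301 ± 26.8 (SD, n = 6) to 239.8 ± 16.7 (SD, n = 6). For these 2 probes every day 1 MI value lay above every day 7 MI value, which held for 2.54% of 354 probes. The other 5 were at -0.06 for R439, -0.03 for R592, 0.06 for RG054, 0.07 for R045 and 0.36 for R333, where the median over all 354 probes was 0.19. As deposited, R364 was -0.37 (SE 0.20) and RG421 -0.18 (SE 0.22), with overlapping groups. On that scale 0 of 354 probes (0%) had every day 1 MI value above every day 7 MI value. The other 5 members lay between 0.09 for R439 and 0.50 for R333. Without A507 to A512 R364 and RG421 were -0.47 (SE 0.13) and -0.49 (SE 0.14) as deposited, R439, R592, R045 and RG054 were then below 0 too, at -0.22, -0.19, -0.07 and -0.07, and R333 was 0.35. With these arrays left out, every day 1 MI value of R364 and RG421 lay above every day 7 MI value on both scales. The same held for 7.4% of 311 probes as deposited and for 4.18% after scaling.

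In sham hearts the day 7 minus day 1 difference after scaling was -0.05 (SE 0.11) for R364 and -0.05 (SE 0.09) for RG421, each smaller than its SE. As deposited both were above 0, at 0.31 (SE 0.20) and 0.31 (SE 0.23), and without A507 to A512 they were -0.13 and -0.14. After scaling the other 5 were higher at day 7, from 0.36 (SE 0.15) for R439 to 0.69 (SE 0.16) for R333, beside a median over 322 probes of 0.20. Sham R592 went from 134 ± 44.0 (SD, n = 6) to 201 ± 16.5 (SD, n = 6), and sham RG054 from 183 ± 57.2 (SD, n = 6) to 249 ± 19.1 (SD, n = 6). Without A507 to A512 the scaled values of R592 and RG054 were 0.24 (SE 0.11) and 0.15 (SE 0.11), that of R439 was 0.04 (SE 0.11) and that of R333 0.58 (SE 0.17). On the deposited scale the 5 lay between 0.72 and 1.01 with all arrays. Without A507 to A512 they were -0.11 for R439, -0.01 for RG054, 0.08 for R592, 0.08 for R045 and 0.43 for R333. The sham course of the 7 thus depended on the scale and on these arrays. For R333 every day 7 sham value lay above every day 1 sham value after scaling, both with all arrays, where 8.07% of 322 probes did, and without A507 to A512, where 7.54% of 305 did. As deposited the sham groups of the 2 days overlapped in all 7 probes, while 1.86% of 322 probes, and 1.97% of 305 without A507 to A512, had every day 7 value higher. In the order of group means after scaling, day 1 MI was highest for 4 probes (R364, RG421, R592 and R439) and day 7 MI for 3 (R045, R333 and RG054). Day 1 sham was lowest for 5, and day 7 sham for R364 and RG421. As deposited, day 1 MI was highest for 2 and day 1 sham lowest for all 7. The day 1 and day 7 MI means of R592, R439, RG054 and R045 differed by less than the SD within either group after scaling.

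**Figure D4:**
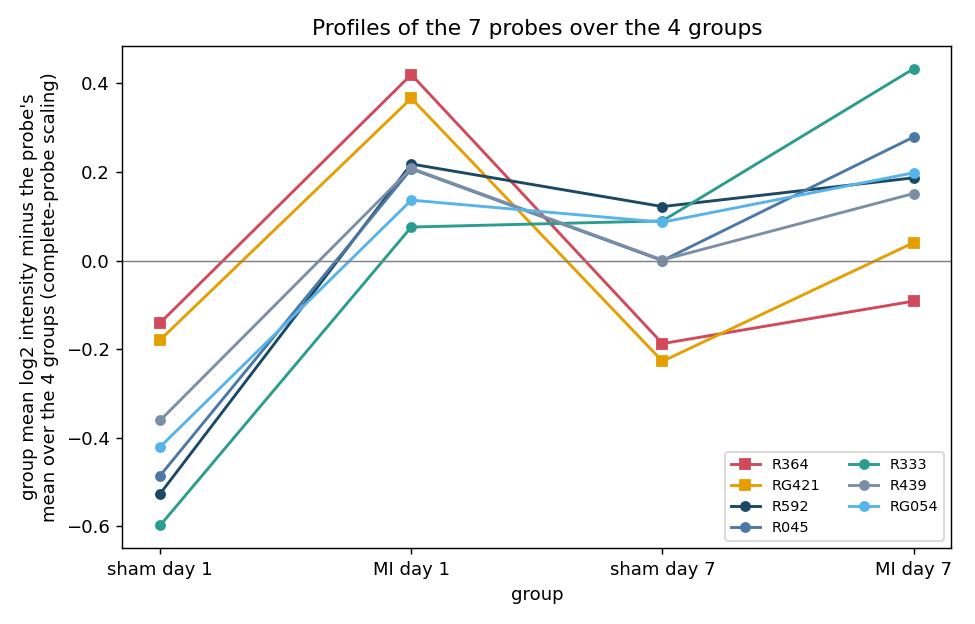
Mean log2 intensity of each of the 7 probes in the 4 groups after complete-probe scaling, minus the probe's own mean over the groups (vertical axis, log2 units), with 1 line joining the 4 values of a probe and squares for R364 and RG421. R364 and RG421 peak in day 1 MI and are lower in both day 7 groups, while the other 5 are lowest in day 1 sham, and of these R592, R045, R439 and RG054 differ by at most 0.07 between the MI groups and R333 is highest in day 7 MI.

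Profiles over the 4 groups were compared by the root mean square difference of their centred mean log2 values, a measure in log2 units that is smaller for more alike probes. Among the 21 pairs of the 7, the most alike after scaling were R439 and RG054 at 0.0674, R592 and RG054 at 0.0693, R045 and RG054 at 0.0762 and R364 and RG421 at 0.0764. The least alike were R364 and R333 at 0.412. Outside the 7, the probe nearest to R364 was R282, at 0.0645 on both scales, where the median over 268 probes was 0.340 after scaling. R282 was 0.45 on the log2 scale between MI and sham at day 1 after scaling, with an SE of 0.19. RG443 was nearest to RG421 at 0.0767 after scaling, and R658 at 0.0149 as deposited. R082 was nearest to R592 (0.109), R045 (0.0721) and RG054 (0.0505) after scaling, RG464 to R333 and RG066 to R439 (0.0672). R082 listed only 3 values in day 1 sham and 4 in day 1 MI, where R592, R045 and RG054 listed 6 in each. Its group means thus rest on fewer arrays, as do those of R064 and RG066, with 4 values each in day 1 sham. As deposited RG464 was nearest to R592, R045, R439 and RG054, and R365 to R333. The mean profile of the 7 was most like those of R082, R064 and RG066 after scaling, at 0.0782, 0.0853 and 0.0882, and of RG464, R362 and R556 as deposited. Most nearest probes other than R282 thus differed between the scales. The distance between R364 and R282 could not differ, because both were listed on every array and the scaling shifts all probes of an array alike. The nearest probes named are not among the 10 probes called at day 1.

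Arrays of 1 group spread unequally. In day 1 sham the SD of log2 intensity had a median of 0.92 over the 7 as deposited and 0.43 after scaling, where the medians over the 275 probes tested in all groups were 0.56 and 0.30. After scaling it was lowest for RG421, at 0.15, and highest for R592, at 0.49. After scaling the 7 spread less than the typical probe in the other groups. Medians were 0.15 against 0.27 in day 1 MI, 0.11 against 0.22 in day 7 sham and 0.10 against 0.23 in day 7 MI. As deposited they were 0.44 against 0.45, 0.19 against 0.24 and 0.15 against 0.23, in the same order. The 7 were called on scaled values with a spread shared by all groups, which favours a small spread. Nothing is therefore read from this. The 7 were also brighter than most tested probes, with 55.6% to 84.7% of the 275 dimmer than they were.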

How the data were processed

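The deposited values are array intensities on a linear scale, 1 column per array, as the authors submitted them. The scanner, background correction and scaling behind these intensities were not recorded in the labels or file headers, nor was the rule that left 63.3% of cells blank, so blanks were treated as missing and not as low values. Each of the 24 columns was matched to its sample, with 0 columns of no sample. Values were taken to log2 and fitted over all probes in limma (version 3.58.1, run in R 4.3.3), using its lmFit and eBayes steps. A probe was tested where each group of the comparison listed 3 values or more, with Benjamini-Hochberg adjustment over all probes tested. In complete-probe scaling, the median log2 value of the 94 probes listed on every array was made equal on all arrays. A probe held at 100 on every array (R371) was left out. Ranks, likeness of group profiles (against 268 other probes), means and SDs were computed in Python 3.11.15. The fits were tested on simulated data, drawn independently for each probe and array without a shift common to an array. That test therefore says nothing of how the dimmer arrays A507 to A512 affect the calls. Probes were named if they were members, lay just inside or outside the threshold, were also called at day 7, or were nearest in profile. The members and these rules were chosen with earlier results of these data known. The alternatives were other scalings, arrays left out, runs as a block, a constant of 16 and other filters. Probe sequences and gene names were not used here.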

Additional observations from a re-analysis of the deposited data

Results flagged for a closer look

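In 2 of the 28 sets formed by a probe and a group (4 groups of up to 6 arrays for each of the 7 probes), 1 array lay far from the others by Dixon's 95% criterion on deposited intensities. Both were MI array A511 at day 1. R364 read 295.6 there, against 384 to 435 on the other 5 arrays, and the gap was 0.639 of the range of the group (critical value 0.625). R333 read 90.7, against 165 to 180.3, with a gap of 0.826 of the range. Chance marks about 1 set in 20. After complete-probe scaling R364 on A511 was 469, the highest of its group, and R333 was 144, inside its group's range.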

How the results depend on the processing

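The median day 1 difference of the 7 probes, 0.82 as deposited, was above 0 under every alternative tried, but it was 0.57 with complete-probe scaling, and without A507 to A512 it was 0.47 as deposited and 0.42 after scaling. Leaving out each array in turn gave 0.65 to 1.05 at day 1 and 0.12 to 0.25 at day 7 as deposited. Without A507 to A512 the median day 7 minus day 1 effect became -0.15 on both scales. The median day 7 minus day 1 difference in MI became -0.19, and 0.36 with quantile normalization. In sham it became -0.0056 as deposited and 0.15 after scaling. Probes called at day 1, 0 as deposited, were 10 with complete-probe scaling, also without the 7 or by the mean, and 5 with at least 6 listed values. They were 3 with quantile normalization, 6 with runs as a block and 1 without A507 to A512 after scaling. They were 2 with 16 added, with the dimmest 25% left out, with a trended robust spread or with the spread estimated over all probes. Leaving out 1 array gave 0 to 11 at day 1 and 2 to 9 at day 7. Probes called at day 7, 7 as deposited, were 11 with complete-probe scaling (also without the 7), 12 by the mean, 4 with quantile normalization, 13 without A507 to A512 on both scales, 17 with runs as a block, 2 with at least 6 listed values and 14 with only the day 7 groups fitted. After scaling, leaving out 1 array gave 7 to 17. The causes were not tested. The scaling by the mean and the spread over all probes were chosen after seeing the data. No paired analysis was possible because the labels number arrays singly and give no replicate numbers shared between groups. A blank gives no value for that array, and 6 arrays a group limit the precision.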
